A study of Mus musculus with 12 samples.

Results

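Chaperone and heat shock genes were examined for acetylation of histone H3 at lysine 36 (H3K36ac) near their starts in neonatal male germ cells. They were taken by symbol from the protein-coding genes of the RefSeq table of mm10, a choice made with earlier results of these data known. The symbols begin with Hsp and a subfamily letter or digit or with Dnaja, Dnajb or Dnajc and a number. Tcp1 and Cct2 to Cct8 were included as far as those symbols occur. This gave 82 of the 21468 protein-coding genes with a known strand. The ChIP-seq samples were spermatogonia-enriched cells from testes of mice at postnatal day (Pnd) 5 of the same inbred background, 3 from wild-type (WT) mice and 3 from Sirt7-/- mice, in which the deacylase SIRT7 is absent from every cell. Every sample came from its own mouse, and the labels number them 2, 3 and 4 within a genotype. Cells were enriched by differential plating, and chromatin from 50000 cells was used per sample, with an input library for each. Peaks were called by the authors in every sample against its own input. A gene counted as called when any part of a peak lay within 3000 bp of its start on either side.

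Chaperones bind proteins that are not yet folded or have lost their fold and keep them from aggregating. Hsp70 proteins do this in cycles of ATP hydrolysis that J proteins start and nucleotide exchange factors end, Hsp90 proteins finish the folding of kinases and hormone receptors, and chaperonins enclose a client in a barrel. Some of these genes are active in all cells, others are switched on by heat through heat shock factor, others respond to unfolded proteins in the endoplasmic reticulum (ER), and several are expressed mostly in the testis, where spermatocytes and spermatids have Hsp70 proteins of their own.

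The 6 peak lists differed widely in length, with 906, 64 and 294 peaks in WT replicates 2, 3 and 4 and 2840, 2045 and 2591 in the Sirt7-/- replicates of the same numbers. WT replicate 3 stood apart as the shortest list and WT replicate 2 held most of the WT peaks. The lists carry no read coverage. The study states the clean reads of each library before filtering, not used here, but the reads that remained for peak calling are not given in the sources used here, and acetylation may be present where no peak was called. Sirt7 itself had no peak near its start in any of the 6 lists, so they offer no check of the genotype labels. Of the marker genes, 3 of 10 for spermatogonia and germ cells (Zbtb16, Dazl and Gfra1) and 1 of 3 for Sertoli cells (Sox9) were called, each in 1 Sirt7-/- sample, and none of the 3 Leydig, 2 peritubular and 2 blood and endothelial markers was called, which says nothing of how pure the cells were.

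More chaperone genes carried an H3K36ac peak in each Sirt7-/- list than in any WT list, as was the case for protein-coding genes in general, and in all 6 lists their share was above that of all protein-coding genes. In the WT samples 9, 1 and 2 of the 82 genes were called in replicates 2, 3 and 4, which is 11%, 1.22% and 2.44% against 4.38%, 0.317% and 1.35% of all protein-coding genes. In the Sirt7-/- samples 20, 18 and 22 genes were called, which is 24.4%, 22% and 26.8% against 13.2%, 9.73% and 11.7%. The groups did not overlap, with the lowest Sirt7-/- sample at 18 genes and the highest WT sample at 9. The Sirt7-/- mean was 20 ± 2 genes (SD, n = 3) and the WT mean 4 ± 4.36 (SD, n = 3), a ratio of 5.

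**Figure D1:**
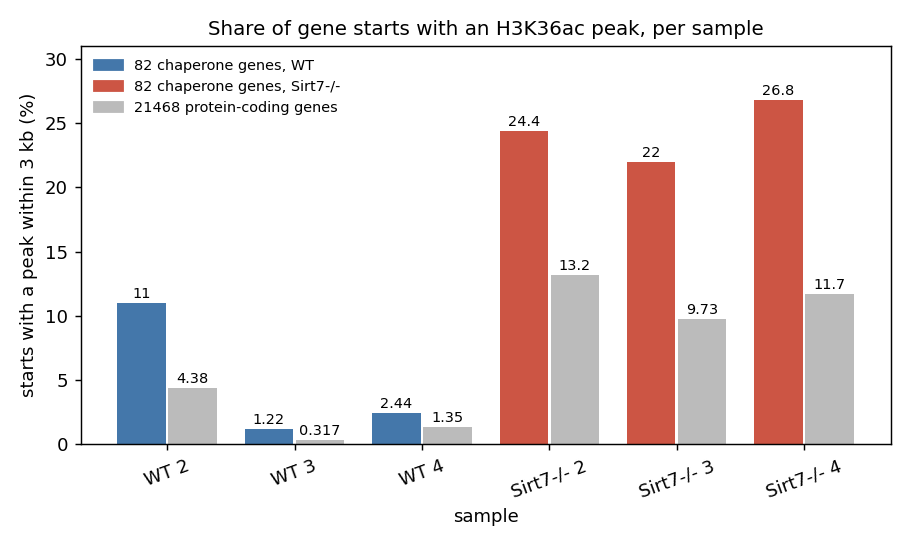
Percent of gene starts with an H3K36ac peak within 3 kb (y axis) in each of the 6 samples (x axis), for the 82 chaperone genes (coloured bars) and for all 21468 protein-coding genes (grey bars), each bar being 1 sample. The coloured bar is above the grey one in all 6 samples, and both are higher in the 3 Sirt7-/- samples than in the 3 WT samples.

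The ratio of 5 for chaperone genes stood beside 5.73 for all protein-coding starts and 5.91 for the number of peaks. The share of chaperone genes over the share of all protein-coding genes was 2.51, 3.85 and 1.81 in WT replicates 2, 3 and 4 (mean 2.72 ± 1.04, SD, n = 3) and 1.85, 2.26 and 2.29 in the Sirt7-/- replicates (mean 2.13 ± 0.245, SD, n = 3). These values overlapped between the genotypes. The WT mean rested largely on replicate 2, without which the ratio of genes called per sample was 13.3 in place of 5. When the same number of best-ranked peaks was taken from every list, 64 each, WT samples had 2, 1 and 1 chaperone genes and Sirt7-/- samples 0, 1 and 2, so that the ratio was 0.75. Of all protein-coding genes 0.349%, 0.317% and 0.326% were then called in WT and 0.284%, 0.317% and 0.312% in Sirt7-/-. With 294 peaks each and WT replicate 3 left out, 2 chaperone genes were called in each WT sample and 5, 4 and 4 in the Sirt7-/- samples, a ratio of 2.17. Here 1.42% and 1.35% of all protein-coding genes were called in WT and 1.47%, 1.5% and 1.43% in Sirt7-/-.

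In all, 31 of the 82 genes (37.8%) were called in at least 1 sample, beside 19.7% of all protein-coding genes. In at least 1 Sirt7-/- sample it was 28 genes (34.1%, beside 19.3%), and in at least 1 WT sample 10 genes (12.2%, beside 5.12%), of which 3 (Hspa9, Hsp90aa1 and Cct8) were left without WT replicate 2. All 3 Sirt7-/- samples had a peak at 14 genes (17.1%, beside 5.09%). For 8 of these 14 no WT sample had one (9.76% of the 82, beside 2.45%), and 12 genes were called in at least 2 Sirt7-/- samples and no WT sample (14.6%, beside 6.47%). The opposite pattern, a call in WT and in no Sirt7-/- sample, was seen at 3 genes (3.66%, beside 0.475%). With 3 samples against 3, Fisher's exact test of a single gene (two-sided) cannot give a p under 0.1, so no gene could pass the 0.05 threshold, and the calls of each gene are given as a description.

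**Figure D2:**
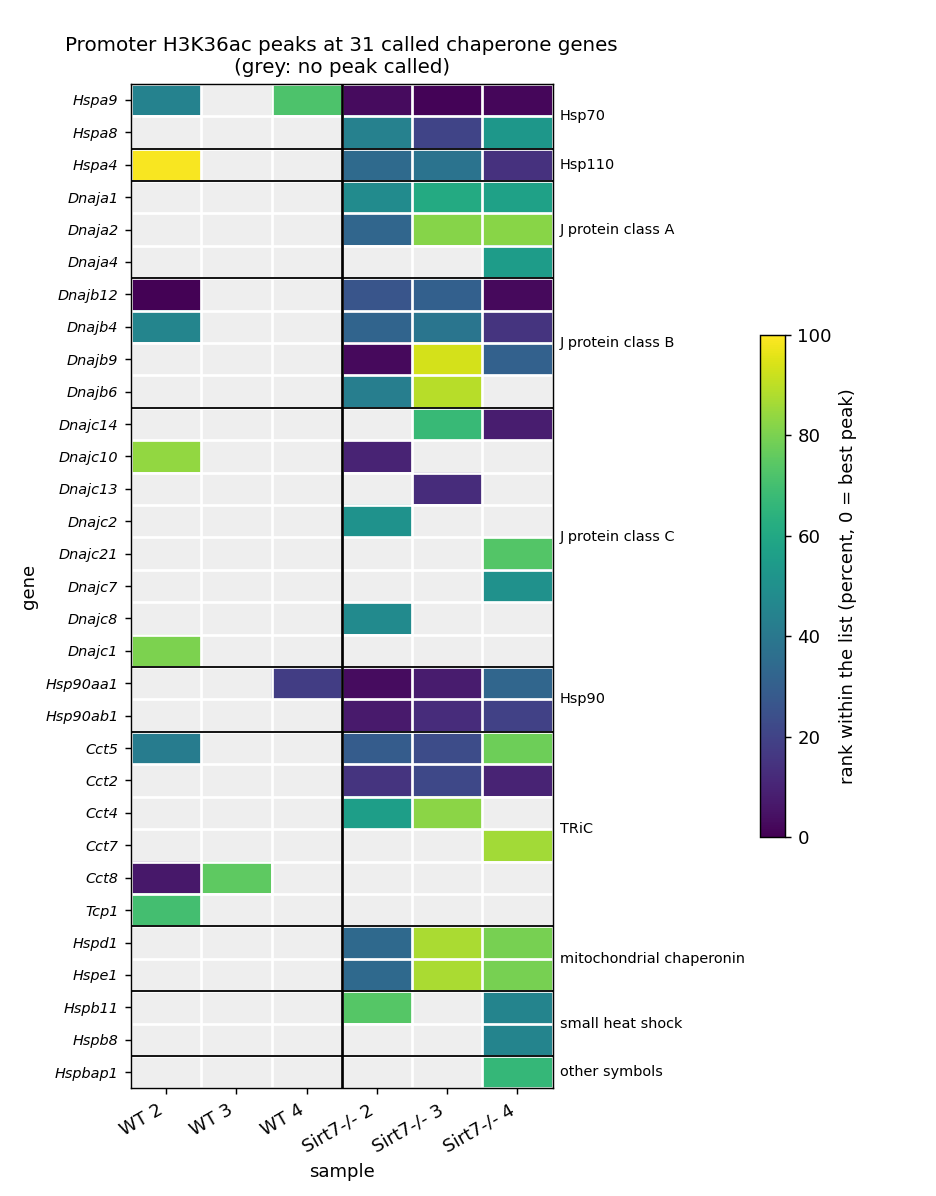
Each row is 1 of the 31 chaperone genes with a promoter peak in at least 1 sample, grouped by family, and each column is 1 of the 6 samples. Colour gives the rank of the gene's best peak within that sample's list in percent (0 is the best peak, by the authors' -log10 q) and grey means that no peak was called. The 14 genes called in all 3 Sirt7-/- samples are 17.1% of the 82, beside 5.09% of all protein-coding genes. They include 2 of 3 Hsp90 genes and none of the 28 genes of class C of the J proteins. Hspd1 and Hspe1 are among them and share the same peaks.

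Of the 11 Hsp70 genes 2 (18.2%), Hspa9 and Hspa8, were called in at least 1 sample, beside 19.7% of all protein-coding genes. Hspa9 encodes the mitochondrial Hsp70, which pulls imported proteins into the matrix. Its mean rank over the Sirt7-/- lists was the best of the 14 genes, though Dnajb9 stood ahead in replicate 2 at rank 67. The Hspa9 peak was at rank 80 among 2840 peaks, 21 among 2045 and 41 among 2591 in Sirt7-/- replicates 2, 3 and 4. In WT replicates 2 and 4 it was at rank 401 of 906 and 212 of 294. All 5 peaks covered the gene start. Their widths were 606 and 496 bp in WT and 877, 668 and 747 bp in Sirt7-/-, without overlap between the genotypes. The median width of all promoter peaks did not overlap either, at 272 to 376 bp in the WT lists and 456.5 to 491 bp in the Sirt7-/- lists. Hspa9 was the only member called in 2 WT samples and also in Sirt7-/- (5 of 6 samples, Fisher's exact test p = 1).

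Hspa8 encodes the constitutive cytosolic Hsp70 and had a peak in every Sirt7-/- sample but in no WT sample (Fisher's exact test p = 0.1). In replicates 3 and 4 the peak began 23 and 53 bp downstream of the start, at ranks 422 and 1376. In replicate 2 it was a separate 216-bp peak ending 813 bp upstream, at rank 1247, so 2 of the 3 calls referred to the same place. The ER Hsp70 gene Hspa5 (BiP), the heat-inducible Hspa1a and Hspa1b, the spermatocyte gene Hspa2 and the spermatid gene Hspa1l had no peak in any sample, nor had Hspa12a, Hspa12b, Hspa13 and Hspa14. Hspa1a and Hspa1b are near-identical copies, and the authors kept uniquely mapped reads only, so an absent call there is uncertain.

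Among the partners that release nucleotide from Hsp70, Hspa4 (of the Hsp110 family) had a peak in the 3 Sirt7-/- samples and in WT replicate 2 (Fisher's exact test p = 0.4), while its relatives Hsph1 and Hspa4l were called in none. Its peaks were 1255, 739 and 401 bp wide in Sirt7-/- and 377 bp in WT, where it stood near the end of the list at rank 896 of 906.

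The promoters of a pair of uncalled Hsp70 genes are shown from RefSeq (GRCm38.p6, 250 bases before the start to 50 bases after it), because they are the ones a reader would look for in heat-stressed cells and in testis. In Hspa1b (chr17:34959189-34959488, minus strand) the capitals mark a pair of inverted heat shock units, gaa and ttc 2 bases apart. In Hspa2 (chr12:76404120-76404419, plus strand, a RefSeq start 558 bp downstream of the gene start used for the calls) they mark the 21 CG dinucleotides.
Hspa1b: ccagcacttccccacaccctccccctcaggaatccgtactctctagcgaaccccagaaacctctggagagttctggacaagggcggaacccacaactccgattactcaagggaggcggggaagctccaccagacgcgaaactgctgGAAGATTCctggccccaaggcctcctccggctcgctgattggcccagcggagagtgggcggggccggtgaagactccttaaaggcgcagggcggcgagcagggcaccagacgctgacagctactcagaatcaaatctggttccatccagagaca
Hspa2: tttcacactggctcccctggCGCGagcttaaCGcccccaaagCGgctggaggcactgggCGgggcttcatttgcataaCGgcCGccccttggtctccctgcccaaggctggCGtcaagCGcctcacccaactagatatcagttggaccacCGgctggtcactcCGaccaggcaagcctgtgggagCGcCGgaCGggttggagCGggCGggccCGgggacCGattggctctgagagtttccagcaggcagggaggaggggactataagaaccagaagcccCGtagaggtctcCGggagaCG
The observed over expected CpG ratio was 0.577 in the Hspa1b window and 0.664 in that of Hspa2, both lower than in the called promoters printed with the J proteins and chaperonins.

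J proteins bring clients to Hsp70, and 15 of the 45 J protein genes (33.3%) were called in at least 1 sample, beside 19.7% of all protein-coding genes. The cytosolic class A genes Dnaja1 and Dnaja2, whose products resemble bacterial DnaJ over their whole length, had a peak in each Sirt7-/- sample and in no WT sample (Fisher's exact test p = 0.1 for each). The Dnaja1 peaks were 403, 593 and 977 bp wide in replicates 2, 3 and 4, and those of Dnaja2 were 755, 954 and 471 bp wide, with the start covered in each. Dnaja4 was called in Sirt7-/- replicate 4 only, and the mitochondrial Dnaja3 in none. The Dnaja1 peak also lay within 3 kb of the start of Aptx.

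In class B, 4 of 13 genes (30.8%) were called. Dnajb12, an ER membrane protein that helps to dispose of misfolded membrane proteins, had a peak in the 3 Sirt7-/- samples and in WT replicate 2 (Fisher's exact test p = 0.4), and in that WT list it was the peak at rank 4 of 906, with the authors' fold over input at 7.09. In Sirt7-/- replicates 2, 3 and 4 it stood at ranks 747, 626 and 64, with folds of 4.50, 5.17 and 6.08. The 4 peaks covered nearly the same stretch, starting between 26 and 60 bp downstream of the gene start and ending between 299 and 540 bp. Ranks and folds belong to their own list and were not compared between samples by a test.

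Dnajb4 had the same pattern of calls, with wide peaks of 1328 bp in WT replicate 2 and 1124, 1149 and 1360 bp in Sirt7-/-, all covering the start and also that of Fubp1, which lies 10 bp away. Dnajb9, an ER J protein that binds BiP, had a peak in the 3 Sirt7-/- samples alone, at ranks 67, 1916 and 808 (Fisher's exact test p = 0.1). Dnajb6, which keeps polyglutamine proteins soluble, was called in Sirt7-/- replicates 2 and 3. The most heat-inducible of the class, Dnajb1, was called in no sample, and the same held for Dnajb2, Dnajb3, Dnajb5, Dnajb7, Dnajb8, Dnajb11, Dnajb13 and Dnajb14.

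The promoters of Dnajb12 (chr10:59879333-59879632, plus strand) and Dnajb4 (chr3:152210034-152210333, minus strand, a RefSeq start 349 bp downstream of the gene start used) are shown because they were called in both genotypes, with CG dinucleotides in capitals.
Dnajb12: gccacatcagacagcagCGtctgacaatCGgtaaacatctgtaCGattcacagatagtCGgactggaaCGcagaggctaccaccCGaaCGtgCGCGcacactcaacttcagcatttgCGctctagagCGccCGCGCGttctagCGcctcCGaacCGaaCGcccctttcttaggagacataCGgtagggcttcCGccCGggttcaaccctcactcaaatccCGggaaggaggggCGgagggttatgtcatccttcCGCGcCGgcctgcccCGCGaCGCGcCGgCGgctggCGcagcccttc
Dnajb4: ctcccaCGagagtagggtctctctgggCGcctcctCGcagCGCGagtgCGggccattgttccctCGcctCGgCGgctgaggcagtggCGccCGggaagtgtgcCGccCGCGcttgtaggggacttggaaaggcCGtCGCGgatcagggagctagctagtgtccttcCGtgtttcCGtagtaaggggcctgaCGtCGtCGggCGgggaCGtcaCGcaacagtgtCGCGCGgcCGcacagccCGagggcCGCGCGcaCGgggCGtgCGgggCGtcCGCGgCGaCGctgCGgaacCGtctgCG
They hold 33 and 44 CG dinucleotides in 300 bases, at an observed over expected ratio of 1.15 and 1.17. The Dnajb4 peaks of WT replicate 2 and Sirt7-/- replicate 4 covered the printed stretch in full and those of Sirt7-/- replicates 2 and 3 all but its end, whereas those of Dnajb12 began at its last bases or just beyond it.

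Class C proteins share only the J domain and serve many separate tasks. Of 28 genes 8 (28.6%) were called, none of them in all 3 Sirt7-/- samples, where 5.09% of all protein-coding genes were. Dnajc14 was called in Sirt7-/- replicates 3 and 4. Dnajc10, an ER disulfide reductase, was called in WT replicate 2 and Sirt7-/- replicate 2, in separate peaks that did not touch. Dnajc1, an ER membrane J protein, was called in WT replicate 2 alone, in a peak 1401 bp downstream of the start at rank 729 of 906. The other 5 were called in 1 Sirt7-/- sample each: Dnajc2 of the ribosome and Dnajc8 of the spliceosome in replicate 2, Dnajc13 of the endosome in replicate 3, and Dnajc7 and the ribosome biogenesis gene Dnajc21 in replicate 4. The remaining 20 were called in none.

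Both cytosolic Hsp90 genes carried a peak in each of the 3 Sirt7-/- samples. Hsp90aa1, the inducible form, stood at ranks 89, 153 and 859 in replicates 2, 3 and 4 and was also called in WT replicate 4, at rank 53 of 294 (Fisher's exact test p = 0.4). The WT peak was 837 bp wide and the Sirt7-/- peaks 252, 293 and 1028 bp, so the widths overlapped. Hsp90ab1, the constitutive form, stood at ranks 210, 260 and 499 in Sirt7-/- and was called in no WT sample (Fisher's exact test p = 0.1). Its peaks were 1404, 268 and 259 bp wide. The ER form Hsp90b1 (Grp94) was called in none.

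TRiC, the cytosolic chaperonin that folds actin and tubulin, is built from several related subunits, whose genes were called in different patterns. Of the 7 genes caught by the name rule, 6 (85.7%) were called in at least 1 sample, beside 19.7% of all protein-coding genes. Cct2 had a peak in the 3 Sirt7-/- samples and in no WT sample (Fisher's exact test p = 0.1), in narrow peaks of 337, 283 and 250 bp at ranks 422, 443 and 262. Cct5 had a peak in the 3 Sirt7-/- samples and in WT replicate 2, that also lay near the start of Atpsckmt, which is 270 bp away. Cct4 was called in Sirt7-/- replicates 2 and 3, Cct7 in Sirt7-/- replicate 4 in a peak nearer to Pradc1, and Cct3 in none.

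Cct8 and Tcp1 went the other way. Cct8 was called in WT replicate 2 (chr16:87495556-87495878, 323 bp, rank 59 of 906) and in WT replicate 3 (chr16:87495567-87495795, 229 bp, rank 48 of 64) and in no Sirt7-/- sample (Fisher's exact test p = 0.4). It was the only chaperone gene in the list of WT replicate 3. The smaller peak lay within the larger one, which ran from 9 bp before the gene start to 313 bp after it. A call in at least 2 WT samples and no Sirt7-/- sample was found at 2 of the 21468 protein-coding genes (0.00932%), Cct8 and Mars1, a count made after the values were seen. Tcp1 was called in WT replicate 2 only, in a 213-bp peak at rank 637 of 906 that also lay within 3 kb of Mrpl18.

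The promoters of Cct2 (chr10:117063803-117064102, minus strand) and Cct8 (chr16:87495820-87496119, minus strand) are printed together because these subunits of 1 complex were called in opposite genotypes, with CG dinucleotides in capitals. Cct8 was added after its values were seen.
Cct2: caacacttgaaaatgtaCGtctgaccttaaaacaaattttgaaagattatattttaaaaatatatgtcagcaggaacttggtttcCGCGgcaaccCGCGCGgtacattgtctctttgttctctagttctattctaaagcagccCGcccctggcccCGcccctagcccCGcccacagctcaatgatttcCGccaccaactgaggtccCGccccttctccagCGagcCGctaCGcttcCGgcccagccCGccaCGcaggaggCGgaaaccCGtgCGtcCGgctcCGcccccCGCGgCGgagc
Cct8: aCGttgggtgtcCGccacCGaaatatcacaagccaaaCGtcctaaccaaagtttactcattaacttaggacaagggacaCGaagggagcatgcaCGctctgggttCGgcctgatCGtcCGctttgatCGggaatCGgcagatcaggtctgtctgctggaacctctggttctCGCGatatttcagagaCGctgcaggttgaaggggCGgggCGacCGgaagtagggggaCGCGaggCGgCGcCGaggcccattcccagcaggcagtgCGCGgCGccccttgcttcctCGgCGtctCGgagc
They hold 25 and 28 CG dinucleotides, at observed over expected ratios of 1.08 and 1.03, so the 2 windows were alike in this measure.

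**Figure D3:**
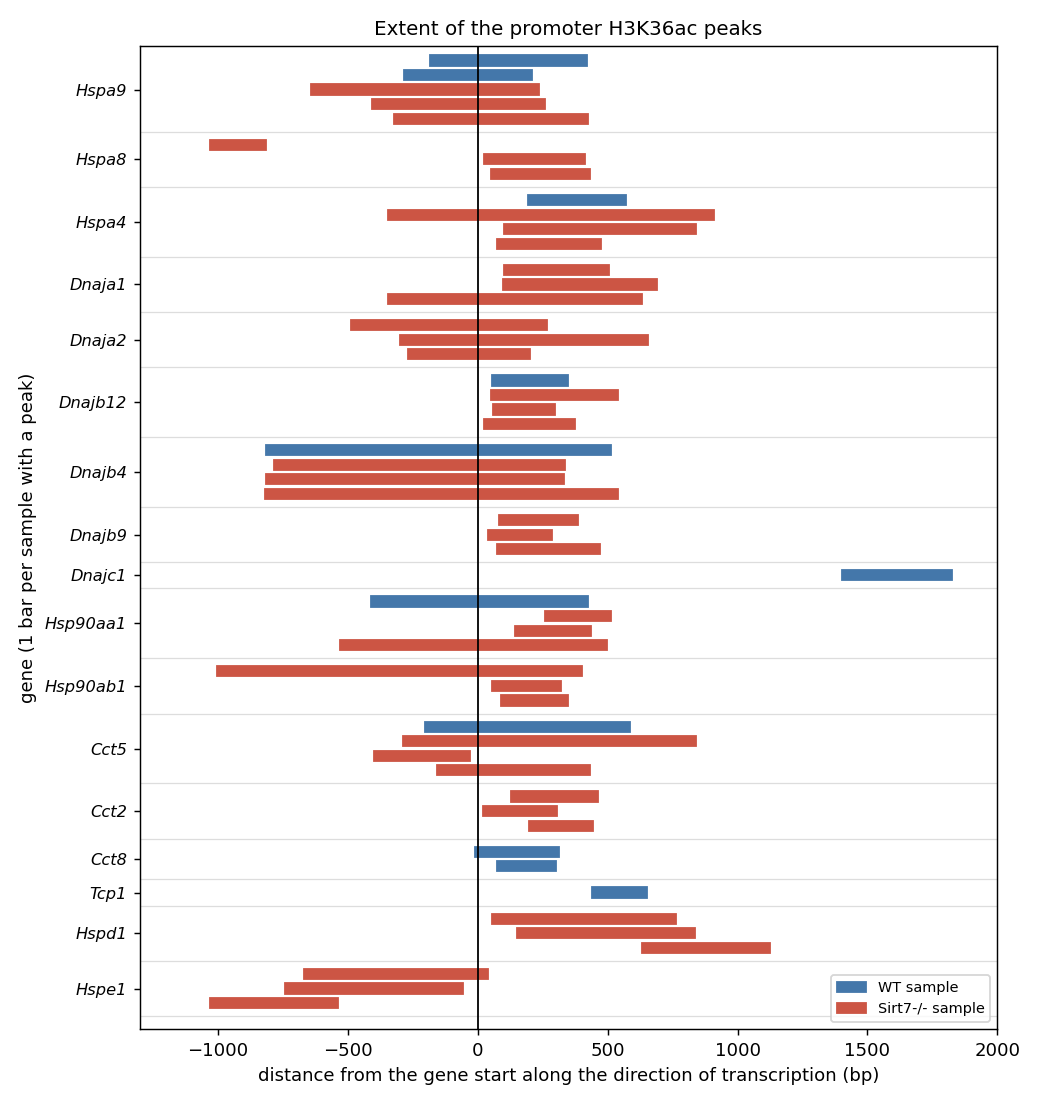
Each bar is 1 called peak, from its first to its last base as the distance in bp from the gene start along the direction of transcription (x axis), for the 14 genes called in all 3 Sirt7-/- samples and the 3 called in WT only (rows). WT peaks are blue and Sirt7-/- peaks red. The Dnajb12, Dnajb9 and Cct2 peaks lie just downstream of the start in every sample called, those of Dnajb4 span it, and 1 of the 3 Hspa8 peaks lies apart from the others.

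The mitochondrial chaperonin genes Hspd1 (Hsp60) and Hspe1 (its lid, Hsp10) start 95 bp apart on opposite strands, and both had a peak in each Sirt7-/- sample and in no WT sample (Fisher's exact test p = 0.1 for each). They share the same 3 peaks, at ranks 970, 1787 and 2058, so they are 1 observation and not a pair. The 8 genes with a peak in every Sirt7-/- sample and none in WT thus lay at 8 separate regions, of which Hspa8 accounts for 2, neither of them called in all 3 samples. Of the 10 genes of mitochondrial proteins 3 (Hspd1, Hspe1 and Hspa9) were called in at least 1 sample, beside 19.7% of all protein-coding genes. Hspd1 and Hspe1 are counted there separately although they share the same peaks. The other 7 genes, among them Dnaja3 and Dnajc19, were not called.

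The Hspe1 promoter (chr1:55087898-55088197, plus strand) is shown because it holds the longest run of heat shock units among the called genes whose window was used, with these units in capitals.
Hspe1: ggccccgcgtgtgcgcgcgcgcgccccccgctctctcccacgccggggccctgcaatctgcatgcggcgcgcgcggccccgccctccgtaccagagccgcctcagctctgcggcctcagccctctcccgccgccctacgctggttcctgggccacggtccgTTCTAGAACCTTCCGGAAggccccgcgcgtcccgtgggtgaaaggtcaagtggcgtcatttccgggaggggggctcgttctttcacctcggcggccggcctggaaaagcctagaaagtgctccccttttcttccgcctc
In Sirt7-/- replicates 2 and 3 the peak covered these units, and in replicate 4 it ended 536 bp upstream of the start and did not.

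Small heat shock proteins hold unfolded clients without using ATP. Of these 8 genes 2 (25.0%) were called in at least 1 sample, beside 19.7% of all protein-coding genes. Hspb8 was called in Sirt7-/- replicate 4 and Hspb11 in replicates 2 and 4, the latter in peaks nearer to the start of Lrrc42. Hspb1, Hspb2, Hspb3, Hspb6, Hspb7 and Hspb9 were called in none. Hspb11 carries the family name but serves transport in cilia. Of the 3 other genes caught by the rule, Hspbap1 was called in Sirt7-/- replicate 4, in a peak nearer to Slc49a4, while Hspbp1, an exchange factor, and Hspg2, which encodes the basement membrane protein perlecan, were called in none.

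Groups by where and when proteins act stood beside 19.7% of all protein-coding genes called in any sample and 5.09% in all 3 Sirt7-/- samples. None of the 10 testis-biased genes was called in any sample. Among them Hspa1l, Hspb9, Dnajb7, Dnajb8 and Dnajb13 had promoters that were not CpG-rich as defined below, where 5.68% of all genes were called. Hspa2, Dnajb3 and Dnajc5g had CpG-rich promoters, where 36.9% of all genes were called. Of 10 genes grouped as heat-inducible 5 (50%) were called (Hsp90aa1, Hspd1, Hspe1, Dnaja1 and Hspa8), each of them in the 3 Sirt7-/- samples. Hspd1 and Hspe1 were called at the same peaks, and Hspa8, counted in this group, is the constitutive gene described above. The other 5, namely Hspa1a, Hspa1b, Hsph1, Hspb1 and Dnajb1, were not. Of 11 ER genes 4 (36.4%) were called (Dnajb12, Dnajb9, Dnajc10 and Dnajc1), and the ER stress genes Hspa5, Hsp90b1 and Dnajc3 were not.

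Called chaperone genes were richer in CpG than uncalled ones, and within CpG-rich promoters the excess over all protein-coding genes was smaller. RefSeq promoter windows could be used for 63 members and for 15752 of all protein-coding genes. A window was called CpG-rich at a GC content of at least 50% and an observed over expected CpG ratio of at least 0.6, which held for 46 of the 63 members (73.0%) and 46.2% of all genes. Among CpG-rich promoters 20 of the 46 members (43.5%) were called in at least 1 sample, beside 36.9% of all, and 9 (19.6%) in all 3 Sirt7-/- samples, beside 9.65%. Among the other promoters 4 of 17 members (23.5%) were called, beside 5.68%, and 1 (5.88%, Cct5) in all 3 Sirt7-/- samples, beside 1.24%. Within the CpG-rich class, the shares in Sirt7-/- replicates 2, 3 and 4 were 23.9%, 26.1% and 34.8% of members beside 25.1%, 18.6% and 21.7% of all genes, and in WT replicates 2, 3 and 4 they were 10.9%, 2.17% and 0% beside 8.57%, 0.535% and 2.68%. In Sirt7-/- replicate 2 and WT replicate 4 the members were thus not above the rest. The part of base composition in the calls was not tested.

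**Figure D4:**
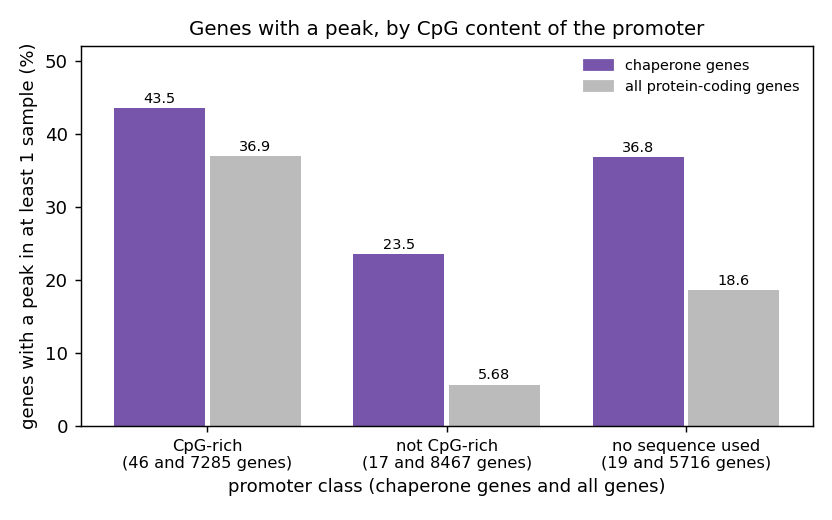
Percent of genes with a peak in at least 1 sample (y axis) for chaperone genes (purple) and all protein-coding genes (grey), by the CpG content of the promoter window (x axis, with the number of chaperone genes and of all genes in each class). The distance between the bars is small in the CpG-rich class, at 43.5% and 36.9%, and wider in the other classes, where fewer chaperone genes stand behind the bar.

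The median observed over expected CpG ratio was 1.04 in the 10 members called in all 3 Sirt7-/- samples, 0.941 in the 24 called in any sample and 0.732 in the 39 not called. Over all genes it was 0.898, 0.860 and 0.438 in the same classes. Heat shock elements were searched on both strands as the letters GAANNTTCNNGAA or their complement, and the ER stress element as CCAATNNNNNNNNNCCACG. The former was in 3 of the 63 windows, those of Hspe1, Dnajb6 and Hsph1 (4.76%, beside 0.489% of all windows), of which the first 2 were called. The latter was in those of Hspa5, Hsp90b1 and Dnajc3 (4.76%, beside 0.159%), none of them called. A CCAAT box, a part of the ER stress element too, was in 41.3% of the members' windows, beside 39.4% of all windows, with 4 of 24 called and 22 of 39 uncalled members. A TATA box written as TATAAA was in 3 members (4.76%, beside 13.7% of all windows), none of them called. The share called among all genes that hold each element was not computed, so these splits by call cannot be set beside all genes. These matches describe the letters in the window and show no binding.

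Peaks at chaperone genes lay mostly downstream of the start, as did those at all called genes. The midpoints at chaperone genes were downstream in 12 of 20, 13 of 18 and 15 of 22 called genes in Sirt7-/- replicates 2, 3 and 4 (60%, 72.2% and 68.2%). These shares were below the 77.7%, 77.1% and 77.7% of all called genes. In WT replicates 2, 3 and 4 it was 8 of 9, 1 of 1 and 1 of 2 (88.9%, 100% and 50%, beside 78.3%, 69.1% and 81.7%). The median width of the members' peaks was 461, 393 and 471 bp in the Sirt7-/- samples (mean 442 ± 42.4, SD, n = 3), against 491, 456.5 and 468 bp for all promoter peaks of those lists. In WT it was 377 bp over 9 peaks in replicate 2 and 666.5 bp over 2 peaks in replicate 4, with a single peak of 229 bp in replicate 3. All promoter peaks had a median width of 376, 272 and 300 bp in WT replicates 2, 3 and 4. The members' median widths overlapped between the genotypes, while those of all promoter peaks were lower in each WT list than in any Sirt7-/- list.

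At 13 of the 31 called genes (41.9%) the peak also lay within 3 kb of another protein-coding start. At 7 (22.6%) that start was nearer in at least 1 sample. The calls at these 13 genes cannot be assigned to the chaperone gene alone. The same shares were not computed over all called protein-coding genes. The Sirt7-/- samples shared most of their called genes. Replicates 2 and 3 had 16 in common (80.0% of 20 and 88.9% of 18), replicates 2 and 4 had 15 (75.0% of 20 and 68.2% of 22), and replicates 3 and 4 had 15 (83.3% of 18 and 68.2% of 22). All 3 Sirt7-/- samples shared 14 of the 28 members called in at least 1 of them, beside 1093 of 4136 protein-coding genes. WT replicates 2 and 4 shared Hspa9, WT replicates 2 and 3 shared Cct8, and WT replicates 3 and 4 shared none. Sharing between single samples was not computed over all protein-coding genes, so these pairs of lists have no such share beside them. Of the 10 genes called in WT, 7 (70.0%) were also called in Sirt7-/- (25.0% of the 28 called there), and for all protein-coding genes 997 of 1099 (90.7%) were (24.1% of 4136).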

How the data were processed

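H3K36ac ChIP-seq peak lists of 3 WT and 3 Sirt7-/- samples were analysed, while the 6 inputs served only in the authors' calling of peaks. Per the submitters' processing notes and the study's methods, the authors used Trim Galore 0.6.6 for trimming, Bowtie2 for alignment (mm10), SAMtools 1.19.2 for filtering to unique, non-duplicated reads and MACS2 2.2.5 for broad peaks in each sample. Spike-in nucleosomes were added, and no spike-in factor was applied. The mice were on the 129S1/Sv background, so the reads were compared with a reference of another strain. The deposited lists give the authors' fold over input (a ratio), the authors' -log10 of p and q, and a score that was not used. The lists hold no depth, and the clean reads that the study states were not used, so p-values, ranks and widths have no interval here. Replicate samples were not pooled.

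Gene positions came from the RefSeq table of GRCm38.p6 (mm10 coordinates), with 1 start per gene. Strand came from the RefSeq promoter table for 67 members and from GENCODE vM39 by symbol for 15, and 419 of 21887 protein-coding genes had none and were left out. Windows were used for sequence only where their start lay within 1000 bp of the gene start. Hsp90aa1 and Hsp90ab1 are named without a sequence. Peaks were ranked within a list by -log10 q. Genes named are those called in WT, the 15 best ranked of those called in all 3 Sirt7-/- samples (14 existed), and 22 well known members fixed by name, and other called members are named with their samples. The members and lists were chosen with earlier results of these data known. Single genes were compared by Fisher's exact test (two-sided), and no test was made over the members. Alternatives were another -log10 q, window, width or list length, a common -log10 p, nearest start, autosomes, strand, members, left-out replicates and a replicate block. The calling script, tested on 2000 simulated peaks, placed 100% correctly. The work was done in Python 3.11.15 with SciPy 1.17.1, NumPy 2.4.6, pandas 2.3.3 and matplotlib 3.10.9.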

Additional observations from a re-analysis of the deposited data

How the results depend on the processing

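Of the 90 values of the 6 summary measures recomputed under other settings, 69 stayed within a set margin, 20 moved beyond it and 1 reversed. The margin was the spread between replicates, or 1.5 times for counts of genes. For the ratio of genes called it was wide, so that 2.17 and 7.61 passed as unchanged beside 5. Taking autosomes only could not alter the counts of members, none of which lies on X or Y. With the same 64 best peaks from every list, the ratio of genes called per sample, Sirt7-/- to WT, fell below 1 at 0.75, the genes called in any sample were 4, those called throughout Sirt7-/- and never in WT 0, and the share of members over that of all protein-coding genes was 3.89 in Sirt7-/- and 4.86 in WT. The difference in samples called for Hsp90aa1 was then -1, and no median width could be given because Sirt7-/- replicate 2 had no member peak. With 294 peaks and WT replicate 3 left out, 10 genes were called in any sample, 0 throughout Sirt7-/- and never in WT, the share of members was 3.61 times that of all genes in Sirt7-/- and 1.76 times in WT, the opposite order to the 2.13 and 2.72 reported, and the median width was 383 bp. A -log10 q of at least 2 left 5 genes called throughout Sirt7-/- and never in WT and shares of 2.4 times in Sirt7-/- and 1.38 times in WT. A common minimum of -log10 p of 5.99 left 4 such genes, with a Sirt7-/- share of 2.52 times and a width of 491 bp. Overlap with the start base itself left 12 genes in any sample and 1 throughout Sirt7-/- and never in WT, with a WT share of 5.34 times. Peaks of at least 500 bp left 15 and 0. Leaving out each replicate in turn gave ratios of genes called from 3.64 to 13.3, the highest without WT replicate 2. The genes called throughout Sirt7-/- and never in WT were then from 8 to 12. With a sample fewer this rule is looser, so that count could not fall below 8 and says nothing of how stable it is.

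The shorter lists leave fewer peaks by construction, and otherwise the cause was not tested. With a replicate block, as the geometric mean of the 3 ratios within a number, the ratio was 7.61. Gene by gene, samples of the same number did not deviate together over the 4238 genes called anywhere (correlations of -0.042, -0.072 and 0.011). This measure cannot see a shift of a whole list. List length fell in the same order in both genotypes, with replicate 2 longest and replicate 3 shortest. The numbers were not taken as pairs in the values reported, and whether they are pairs was not settled. Counting every RefSeq start, an alternative added after the data were seen, gave no further calls. The lists ran from 64 to 2840 peaks, and list length and genotype cannot be told apart. The reads left after filtering are not given in the sources used here, and calls missing from WT were not read as loss of the mark.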

Other observations

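Chaperone partners that the name rule left out were looked up from a fixed list of 52 genes, of which 23 (44.2%) had a promoter peak in at least 1 sample, beside 19.7% of all protein-coding genes. In all 3 Sirt7-/- samples 10 of them were called (5.09% of all protein-coding genes were), and 6 of these in no WT sample (2.45% of all): the prefoldin subunit gene Pfdn2, the Hsp90 and Hsp70 cochaperone genes Ahsa1, St13 and Fkbp8, the ER Hsp110 gene Hyou1, and Cct6b, a TRiC subunit gene known from testis. The other 4 were Sec63, a J protein of the ER translocon, the heat shock factor gene Hsf2, and Bag6, each also called in WT replicate 2, and the Hsp90 cochaperone gene Ptges3, also called in WT replicates 2 and 4. Cct6a, which completes TRiC in most cells, was called in WT replicate 4 and Sirt7-/- replicate 2. Clpb, a mitochondrial disaggregase, was called in WT replicate 2 and in no Sirt7-/- sample.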
